A study of Mus musculus with 6 samples.

Results

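The genes described here are 10 members of the NF-kB pathway and the adhesion molecules it induces: Nfkb1, Nfkb2, Rela, Relb, Nfkbia, Tnfaip3, Tnfrsf1a, Tnfrsf1b, Vcam1 and Icam1. They were taken by gene symbol from a count table of 47967 genes from mouse gastrocnemius, the large calf muscle, and all 10 were found. Each also passed the filter on low counts, as did 15347 genes in all. The samples came from male C57BL/6 mice aged 20 to 24 weeks, which ate one of a pair of diets for 12 weeks. The normal phosphate diet held 0.6% inorganic and 0.9% total phosphate, and the high phosphate diet 2.0% inorganic and 2.3% total phosphate. Both had the same magnesium (0.3%), calcium (1.9%), potassium (1.8%) and sodium (0.9%). There were 3 libraries for each diet, and the labels do not say that each came from its own mouse, so a p-value here reflects the spread among the 3 libraries of a diet, which may be technical. The comparison of the diets asked how a high phosphate intake alters muscle transcripts.

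NF-kB is a family of dimeric transcription factors. Inhibitor proteins hold the dimers in the cytoplasm until receptors such as those for TNF activate a kinase complex that marks the inhibitors for destruction. The freed dimers then switch on genes of inflammation, among them their own inhibitors and the adhesion molecules by which blood vessels catch passing leukocytes. In skeletal muscle the subunits are made by the fibres as well as by endothelial and immune cells, so RNA from whole tissue adds these sources together. In such bulk samples, fewer cells of a type and less RNA per cell cannot be told apart.

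The libraries held 21856006 to 27474251 gene counts, and the members 121 to 2299 counts per library, so the largest counting error of a member in a library was 9.09%. Muscle fibre markers summed to 85710 to 123600 CPM on the normal and 210600 to 266000 CPM on the high phosphate diet, and these are the markers of the labelled tissue. CPM are counts scaled to library size and then by TMM, a method that sets the typical gene equal between libraries. Normal phosphate replicate 2 stood apart from the other libraries of its diet: chi-square over its degrees of freedom, which is near 1 for pure sampling noise, was 51.7 and 52.4 against them, 16.5 between replicates 1 and 3, and 18.3 to 41.7 among the high phosphate libraries. Of the 10 members, 8 were at their highest of all 6 libraries there. For each member the value without this library is therefore given beside its result. Without it, the other named genes that were called kept their calls except Rel and Cd163, and 1 fold change, that of Ccl5, moved by over 1.5 times.

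Relative to a typical gene, 7 of the 10 members fell on the high phosphate diet and 0 rose. Those that fell were the TNF receptors Tnfrsf1b and Tnfrsf1a, the adhesion molecules Vcam1 and Icam1, the deubiquitinase Tnfaip3 and the subunit precursors Nfkb1 and Nfkb2. Rela, Relb and the inhibitor Nfkbia were not called. A gene was called at a Benjamini-Hochberg adjusted p under 0.05 by edgeR's quasi-likelihood test over all genes tested, where 49.3% were called, 26.3% lower and 23.0% higher. The median log2 fold change of the members, high over normal phosphate, was -0.68, against -0.016 over all genes tested. Every high phosphate library lay below every normal phosphate library in 8 of the 10 members, against 32.1% of all genes tested. Without normal phosphate replicate 2 the same 7 were called and the median was -0.54.

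**Figure D1:**
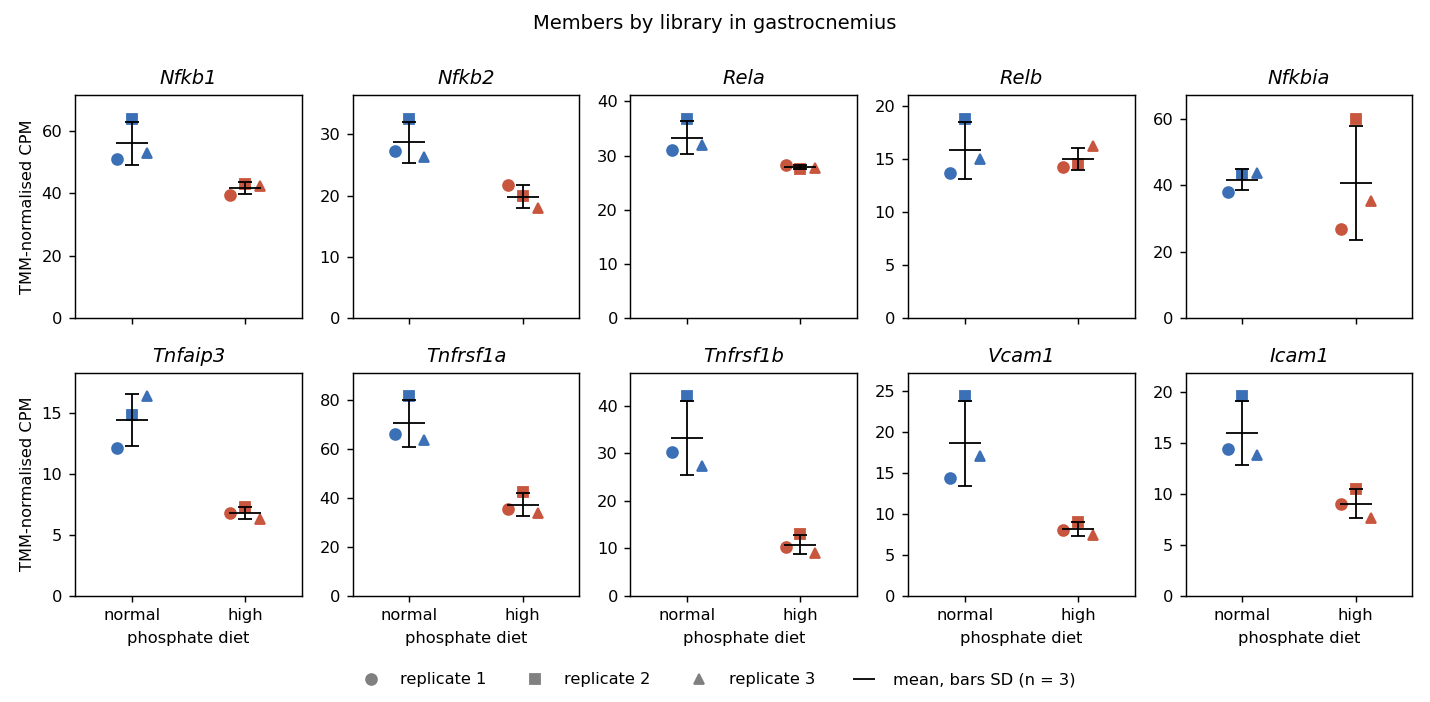
Level of each member in TMM-normalised CPM (vertical axes, from 0) in the 3 normal and 3 high phosphate libraries, marked by replicate, with mean and SD. The diets are apart in every panel except those of Relb and Nfkbia, and in Nfkbia high phosphate replicate 2 lies above all other libraries at 60.0 CPM.

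The members lie on 8 chromosomes, and of the 10, 7 have promoter sequence in the RefSeq table used (GRCm38.p6). Because NF-kB binds a short DNA element, the kappa-B motif, the 250 bases before each listed start were searched for a 10-letter consensus of it. The consensus was GGGRNNYYCC, where R is A or G, Y is C or T and N is any base. Both strands were searched, counting overlapping matches of one position once. A match was found in 3 of these 7 genes (Nfkb2, Nfkbia and Tnfaip3) and in 25 of 86 other pathway genes with a promoter. It was found in 10.7% of the 11001 tested genes with a promoter and in 8.23% of all 27025 genes in the table. A gene with several listed starts, such as Nfkb2 or Tnfaip3, had more windows in which to match. By window, the members matched in 5 of 10 and the tested genes in 8.97%. A match is a description of these letters and not evidence of binding, and a window without a match may hold kappa-B sites that depart from this consensus. The Icam1 window, for example, holds tggaaattcc, which departs from it in the first letter. The stretches below show a match in an inhibitor that was not called, and windows without a match to this consensus in genes that fell, Tnfrsf1b and Icam1. All read 5′ to 3′ on the gene's strand, with motif matches in capitals. Nfkbia is shown from chr12:55492648-55492897 (minus strand), where the match begins 29 bases before the start; Tnfrsf1b from chr4:145246871-145247120 (minus strand); and Icam1 from chr9:21015690-21015939 (plus strand).
Nfkbia: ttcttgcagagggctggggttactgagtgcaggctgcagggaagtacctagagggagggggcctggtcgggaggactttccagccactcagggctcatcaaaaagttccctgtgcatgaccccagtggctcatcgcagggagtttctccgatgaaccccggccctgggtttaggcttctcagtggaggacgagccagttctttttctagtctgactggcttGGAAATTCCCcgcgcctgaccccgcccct
Tnfrsf1b: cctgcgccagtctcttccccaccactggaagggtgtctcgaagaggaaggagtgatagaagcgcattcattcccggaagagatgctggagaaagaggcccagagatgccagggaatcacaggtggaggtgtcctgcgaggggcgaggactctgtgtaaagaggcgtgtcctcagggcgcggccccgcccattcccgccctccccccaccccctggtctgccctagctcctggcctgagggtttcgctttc
Icam1: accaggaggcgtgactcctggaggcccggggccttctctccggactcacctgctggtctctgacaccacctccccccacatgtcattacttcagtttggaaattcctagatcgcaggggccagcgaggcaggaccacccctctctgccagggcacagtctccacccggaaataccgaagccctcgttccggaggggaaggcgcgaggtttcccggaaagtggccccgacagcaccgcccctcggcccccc

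For the called genes with a match, Tnfaip3 and Nfkb2, annotated exons reach into the window, so only 30 bases around a match are shown. They come from chr10:19015411-19015440 (minus strand), with a match 12 bases before the start, and chr19:46304688-46304717 (plus strand), with overlapping matches 39 and 38 bases before it.
Tnfaip3: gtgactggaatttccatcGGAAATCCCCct
Nfkb2: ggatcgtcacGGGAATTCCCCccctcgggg

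Tnfrsf1a encodes the TNF receptor found on most cells, and lies at chr6:125349362-125362484 (GRCm38, plus strand, 11 exon blocks). Its levels were 65.9, 81.5 and 63.9 CPM in normal phosphate replicates 1, 2 and 3, and 35.6, 42.5 and 33.7 CPM in the high phosphate replicates. The lowest normal phosphate library was 1.502 times the highest high phosphate library. The mean fell from 70.4 ± 9.62 to 37.3 ± 4.64 CPM (± SD, n = 3 each). On the log2 scale the difference was -0.92 ± 0.13 (SE), with an edgeR adjusted p of 0.00101, and it was -0.80 without normal phosphate replicate 2.

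The second TNF receptor, Tnfrsf1b, is made chiefly by immune and endothelial cells, and lies at chr4:145213463-145246870 (minus strand, 10 exon blocks). It stood at 30.3, 42.0 and 27.4 CPM on the normal and at 10.4, 13.04 and 8.98 CPM on the high phosphate diet. Here the diets were farthest apart of all members, the lowest normal library being 2.10 times the highest high phosphate library. Tnfrsf1b fell from 33.2 ± 7.74 to 10.8 ± 2.07 CPM (-1.62 ± 0.19 on the log2 scale, edgeR adjusted p = 0.000598), and the difference was -1.42 without normal phosphate replicate 2. Markers of macrophages, which carry this receptor, were also lower. Of 12 such markers, 1 rose and 11 fell, and their sum was 1062 to 2011 CPM on the normal and 405 to 595 CPM on the high phosphate diet. Adgre1 (F4/80), for example, stood at 29.1 to 76.8 and at 11.4 to 13.3 CPM. The riser, named after its value was seen, was Cd163, at 25.6 to 36.1 and 33.9 to 61.2 CPM. Its diets overlapped (0.59, edgeR adjusted p = 0.0494). The call was lost without normal phosphate replicate 2 (0.73, edgeR adjusted p = 0.0599). Library size alone (0.11) and the log2(FPKM + 1) scale described below (0.089) did not call it either. As a share of the counts of these 12 markers, Tnfrsf1b made up 2.06%, 2.09% and 2.58% in the normal and 2.04%, 2.19% and 2.22% in the high phosphate libraries. That share overlapped between the diets, and its log2 difference was -0.057 (two-sided exact permutation test, p = 0.8, adjusted p = 0.8 over 8 such ratios). This p-value does not show that Tnfrsf1b kept its proportion to macrophage RNA. The share leans on Lyz2, a large part of the summed counts, at 800, 1056 and 571 CPM on the normal and 207, 245 and 161 CPM on the high phosphate diet. A share without Lyz2 was not tested.

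The ratio of the receptors was lower on the high phosphate diet. Tnfrsf1b had 0.459, 0.516 and 0.430 counts for each count of Tnfrsf1a on the normal phosphate diet and 0.291, 0.307 and 0.267 on the high phosphate diet. A ratio within a library does not depend on how libraries are scaled, and here the diets did not overlap (log2 difference -0.70, exact permutation p = 0.1, adjusted p = 0.2 over 8 ratios). With 3 libraries against 3, 0.1 is the smallest p this test can give.

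Among the subunits, Nfkb1 encodes the p105 precursor of p50 and lies at chr3:135584655-135691547 (minus strand, 26 exon blocks). It stood at 51.0, 63.7 and 53.0 CPM on the normal and at 39.5, 42.9 and 42.4 CPM on the high phosphate diet. The groups did not overlap, but the gap was narrow, at 1.19 times. Nfkb1 fell from 55.9 ± 6.82 to 41.6 ± 1.84 CPM (log2 fold change -0.43 ± 0.11, edgeR adjusted p = 0.0117), and the difference was -0.32 without normal phosphate replicate 2. The call was lost without high phosphate replicate 1 (-0.38, edgeR adjusted p = 0.0501).

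Nfkb2 encodes p100, the precursor of p52, and lies at chr19:46304320-46312385 (plus strand, 20 exon blocks). Its levels were 27.3, 32.5 and 26.3 CPM on the normal and 21.7, 20.0 and 17.9 CPM on the high phosphate diet, again with no overlap. It fell from 28.7 ± 3.34 to 19.9 ± 1.88 CPM (-0.53 ± 0.12, edgeR adjusted p = 0.00667), and the difference was -0.43 without normal phosphate replicate 2. Exons on the opposite strand, of Psd and AC114539.1, cover 18.1% of its exonic bases, and reads there cannot be assigned without a strand setting; Psd itself had 23 to 98 counts per library.

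Rela encodes p65, which carries the activation domain of the commonest dimer, and lies at chr19:5637483-5648130 (plus strand, 13 exon blocks). Its levels of 31.1, 36.8 and 32.0 CPM on the normal phosphate diet all exceeded the 28.2, 27.6 and 27.7 CPM on the high phosphate diet. The means were 33.3 ± 3.05 and 27.8 ± 0.345 CPM, and the difference was not called (-0.26 ± 0.10, 95% interval -0.49 to -0.030, edgeR adjusted p = 0.0593). It became a call with a filter of 1 CPM in 3 libraries (-0.28, edgeR adjusted p = 0.0456), and was -0.18 without normal phosphate replicate 2.

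Relb, the partner of p52, lies at chr7:19606217-19629438 (minus strand, 15 exon blocks). It stood at 13.6, 18.7 and 15.0 CPM on the normal and at 14.3, 14.5 and 16.2 CPM on the high phosphate diet, and the groups overlapped. No difference was called (-0.076 ± 0.14, 95% interval -0.39 to 0.24, edgeR adjusted p = 0.675), and without normal phosphate replicate 2 the sign turned (0.066). The last subunit, Rel (c-Rel), which is chiefly lymphoid, is not a member. It stood at 12.6 ± 1.71 and 9.33 ± 1.46 CPM and was called lower (-0.43 ± 0.16, edgeR adjusted p = 0.0489). Its diets overlapped, and the call was lost under 7 of 16 alternatives, among them without normal phosphate replicate 2 (-0.36) and without high phosphate replicate 1 (-0.30).

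Ratios within the libraries set the subunits against each other. Nfkb2 had 0.535, 0.511 and 0.496 counts per count of Nfkb1 on the normal and 0.549, 0.466 and 0.422 on the high phosphate diet (log2 difference -0.11, exact permutation p = 0.5, adjusted p = 0.571), and the diets overlapped. Relb per Rela was 0.438, 0.510 and 0.468 against 0.505, 0.527 and 0.584 (0.19, exact permutation p = 0.2, adjusted p = 0.267), with 2 of the 3 high phosphate libraries above every normal phosphate library. These p-values do not show that the pairs kept their proportions. The other 4 pairs, computed afterwards and given without a test, did not overlap, and each precursor was lower relative to Rela and to Relb. Nfkb1 per Relb was 3.74, 3.40 and 3.54 on the normal and 2.77, 2.95 and 2.62 on the high phosphate diet. Nfkb2 per Relb was 2.00, 1.74 and 1.76 against 1.52, 1.38 and 1.11. The log2 differences were -0.36 for Nfkb1 and -0.47 for Nfkb2 per Relb, and -0.17 and -0.28 per Rela.

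Of the inhibitors, Nfkbia encodes IkB-alpha, which binds p65 dimers and is remade by NF-kB itself, and lies at chr12:55489410-55492647 (minus strand, 6 exon blocks). It stood at 38.0, 43.4 and 43.6 CPM on the normal phosphate diet, an SD of 7.66% of the mean. On the high phosphate diet it stood at 26.8, 60.0 and 35.3 CPM, an SD of 42.4%. Replicate 2 was the highest of all 6 libraries and replicates 1 and 3 were the lowest, so the diets overlapped. The log2 fold change was -0.036 ± 0.26 (95% interval -0.65 to 0.58, edgeR adjusted p = 0.921), which leaves room for a change of either sign. The sign turned without high phosphate replicate 1 (0.20) or 3 (0.071), and without replicate 2 the value was -0.41, still not called. Without normal phosphate replicate 2 it was -0.0059. High phosphate replicate 2 also had the highest red blood cell marker score of the 6 libraries, a mean log2 CPM of 6.57 against 3.92 to 5.57 in the others; the part of this in the Nfkbia level was not tested.

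Tnfaip3 encodes A20, a ubiquitin-editing enzyme that shuts off the signal downstream of the TNF receptor. It lies at chr10:19000910-19015657 (minus strand, 9 exon blocks). It stood at 12.1, 14.8 and 16.4 CPM on the normal and at 6.78, 7.29 and 6.28 CPM on the high phosphate diet. Unlike most members it was highest in normal phosphate replicate 3. The groups were 1.66 times apart at their nearest libraries, and Tnfaip3 fell from 14.4 ± 2.16 to 6.78 ± 0.502 CPM (-1.09 ± 0.15, edgeR adjusted p = 0.000835). Without normal phosphate replicate 2 the difference was -1.07. Its counts per count of Nfkbia were 0.319, 0.342 and 0.375 against 0.253, 0.121 and 0.178, with no overlap (log2 difference -0.97, exact permutation p = 0.1, adjusted p = 0.2).

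Vcam1 encodes the adhesion molecule that binds the alpha-4 integrins of lymphocytes and monocytes. It lies at chr3:116109949-116129688 (minus strand, 10 exon blocks). Its levels were 14.4, 24.3 and 17.1 CPM on the normal and 8.07, 8.97 and 7.37 CPM on the high phosphate diet. Normal phosphate replicate 2 was well above the rest, and replicates 1 and 3 of that diet were still above every high phosphate library. Vcam1 fell from 18.6 ± 5.14 to 8.14 ± 0.800 CPM (log2 difference -1.19 ± 0.20, edgeR adjusted p = 0.00159), and the difference was -0.95 without normal phosphate replicate 2.

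Icam1 binds the beta-2 integrins of leukocytes, and lies at chr9:21015985-21028817 (plus strand, 7 exon blocks). It stood at 14.4, 19.5 and 13.8 CPM on the normal and at 9.03, 10.5 and 7.58 CPM on the high phosphate diet, with no overlap. It fell from 15.9 ± 3.14 to 9.02 ± 1.43 CPM (-0.82 ± 0.17, edgeR adjusted p = 0.00475), and the difference was -0.65 without normal phosphate replicate 2. Exons of Gm47079 on the opposite strand cover 11.7% of its exonic bases, and reads there may belong to either gene. Vcam1 counts per Icam1 count were 0.997, 1.25 and 1.24 against 0.893, 0.859 and 0.973 (log2 difference -0.35, exact permutation p = 0.1, adjusted p = 0.2).

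Most endothelial markers were also lower. Of 12 markers, 9 fell, 0 were called higher, none was at 0, and their sum was 1131 to 1305 CPM on the normal and 722 to 990 CPM on the high phosphate diet. Pecam1 (CD31) stood at 184, 234 and 194 against 109, 164 and 139 CPM (-0.57 ± 0.17, edgeR adjusted p = 0.0207), a call lost without high phosphate replicate 1 or 3. Cdh5 (VE-cadherin) stood at 218, 288 and 207 against 128, 168 and 167 CPM (-0.62 ± 0.17, edgeR adjusted p = 0.0152), lost without high phosphate replicate 1. Flt1, a VEGF receptor, went the other way without being called, at 105, 88.5 and 119 against 113, 184 and 143 CPM (0.49 ± 0.19, edgeR adjusted p = 0.0525); it was named after its values were seen. As a share of the counts of the 12 markers, Vcam1 made up 1.27%, 1.86% and 1.51% on the normal and 1.117%, 0.906% and 0.830% on the high phosphate diet. These did not overlap (log2 difference -0.70, exact permutation p = 0.1, adjusted p = 0.2). The share of Icam1 was 1.27%, 1.496% and 1.22% against 1.25%, 1.06% and 0.853%, which overlapped (-0.35, exact permutation p = 0.2, adjusted p = 0.267). Both shares set RNA from all cells of the tissue against endothelial markers alone. Mean log2 CPM fell more for several other marker lists, among them macrophages (-1.39) and fibro-adipogenic progenitors (-1.30), than for endothelial cells (-0.53). It fell less for pericytes (-0.325) and satellite cells (-0.035) and rose for muscle fibres (0.94). The part of other cell types in either share was not tested.

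**Figure D2:**
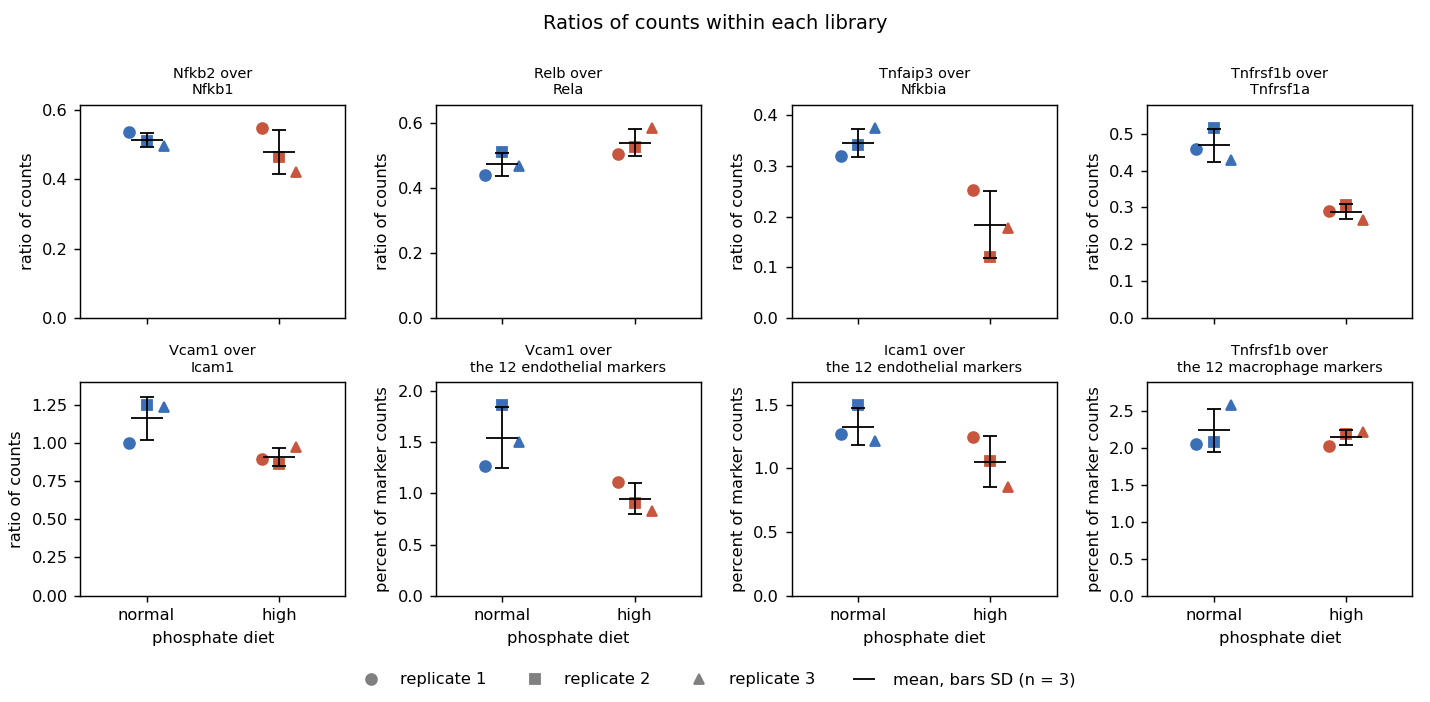
Counts of one gene per count of another, or as a percent of the summed counts of a marker list (vertical axes, from 0), in each library by diet, with mean and SD (n = 3). The diets are apart for Tnfrsf1b over Tnfrsf1a, Tnfaip3 over Nfkbia, Vcam1 over Icam1 and Vcam1 over the endothelial markers, and overlap in the other 4 panels.

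The size of every difference depended on the scaling. With library size alone the log2 fold changes ran from -2.11 (Tnfrsf1b) to -0.50 (Nfkbia), and all members but Nfkbia were called lower. The median of all genes tested was then -0.49. The authors' FPKM values, fragments scaled by transcript length and library size, tested with limma as log2(FPKM + 1), called 8 members lower, all but Relb and Nfkbia, at a median of -0.997 against -0.26 over all genes. Nfkb1 departed most between counts and FPKM. Its FPKM were 8.66, 16.7 and 11.2 on the normal and 3.56, 2.61 and 2.57 on the high phosphate diet, a mean FPKM of 23.9% of normal, whereas the mean of its TMM-scaled counts was 74.4% of normal. On the log2(FPKM + 1) scale, whose pseudocount shrinks the difference, it was -1.72. The tool behind the FPKM values is not given in the sources used here, and the cause of this gap was not tested.

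**Figure D3:**
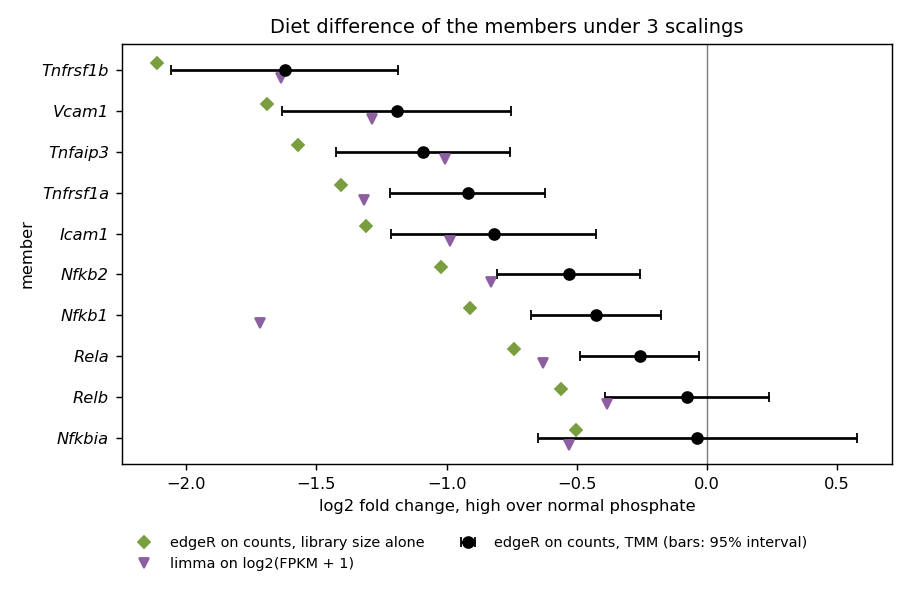
Log2 fold change of each member, high over normal phosphate (horizontal axis), by edgeR on TMM-scaled counts with its 95% interval, by edgeR with library size alone, and by limma on log2(FPKM + 1). All points lie at or below -0.036, and Nfkb1 has the widest gap between counts and FPKM, -0.43 against -1.72.

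Compared per kilobase of exon, Tnfrsf1a and Nfkbia were the most abundant members on both diets. On the normal phosphate diet Tnfrsf1a stood at 27.2 ± 3.71 and Nfkbia at 25.9 ± 1.98 CPM per kb, and their libraries overlapped. Rela followed at 10.8 ± 0.989 and Tnfrsf1b at 8.71 ± 2.03 CPM per kb, again overlapping. Nfkb2 (6.26), Nfkb1 (4.64), Relb (4.06) and Icam1 (3.65) came next, and Vcam1 (2.09) and Tnfaip3 (2.00) were lowest. Among these, Nfkb1 overlapped with Relb and with Icam1, Relb with Icam1, and Vcam1 with Tnfaip3. On the high phosphate diet Tnfrsf1b moved from the fourth place to the seventh, at 2.83 ± 0.540 CPM per kb. The order there was Nfkbia (25.3), Tnfrsf1a (14.4), Rela (9.06), Nfkb2 (4.33), Relb (3.86), Nfkb1 (3.45), Tnfrsf1b, Icam1 (2.07), Tnfaip3 (0.939) and Vcam1 (0.917). Overlap was found between Nfkb2 and Relb, Nfkb1 and Tnfrsf1b, Tnfrsf1b and Icam1, and Tnfaip3 and Vcam1. Ranked by mean FPKM instead, Tnfrsf1b went from rank 6 to rank 8, and Nfkb1 from rank 3 to rank 6.

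The rest of the pathway was read from lists ordered by role, which held 109 genes beside the members, 95 of them tested. Of these, 54 fell (56.8%), 9 rose and 32 were not called, with a median of -0.57. Over all genes tested, 26.3% fell, 23.0% rose and the median was -0.016. These shares are also the background for the counts of every single list, of pathway genes or of markers. Genes with few counts could pass the filter through the diet where they were higher, so calls of such genes were not independent of it. Without normal phosphate replicate 2, 51 of the 54 and all 9 were called in the same direction. With library size alone all 54 but only 1 of the 9 risers kept their call, and Tnip1 turned negative; on the log2(FPKM + 1) scale 51 of the 54 and 1 of the 9 did. The riser that kept its call on both scales was Sqstm1.

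**Figure D4:**
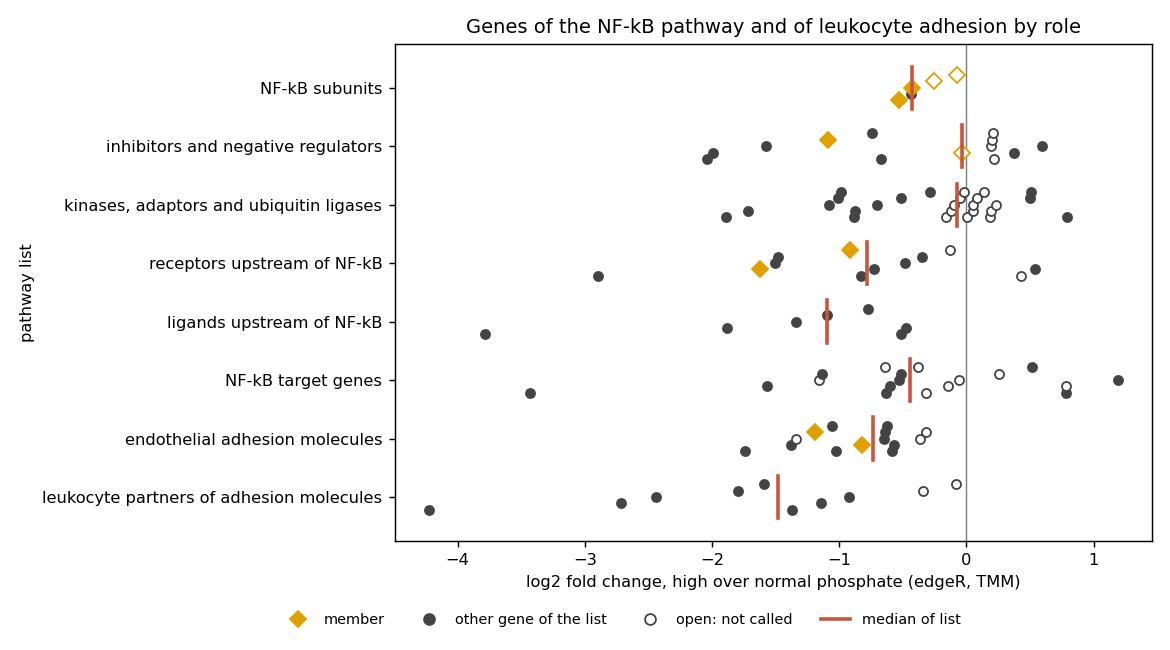
Log2 fold change, high over normal phosphate, by edgeR on TMM-scaled counts (horizontal axis) of each tested gene of the lists, by role, with members as diamonds, called genes filled and the median of each list as a bar. The leukocyte partners have the lowest median, -1.48, and the medians of the kinases (-0.075) and the inhibitors (-0.036) lie near 0.

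Ligands that start the signal were low and fell. Of 11 in the list, 7 were tested and all 7 were called lower (median -1.09), against 26.3% of all genes tested. Tnf, Ltb and Il1b passed the filter on low counts only through the normal phosphate libraries. Tnf, for example, had 12, 20 and 14 counts there and 2, 4 and 3 on the high phosphate diet. For these genes the filter favoured a lower call in advance, so the set of 7 is not fairly compared with that share. Tnf itself was at 0.460, 0.709 and 0.513 CPM on the normal and 0.0916, 0.204 and 0.156 CPM on the high phosphate diet (-1.88 ± 0.44, edgeR adjusted p = 0.00747). The related Ltb (lymphotoxin beta) was at 0.958, 7.72 and 7.80 against 0.412, 0.408 and 0.363 CPM (-3.78 ± 0.82, edgeR adjusted p = 0.00807). Limma-voom, or leaving out the filter, ended this call. Normal phosphate replicate 1 was far below the other libraries of its diet in Ltb. The same library held less of the B cell markers: their sum was 13.9 to 92.1 CPM on the normal and 1.28 to 2.75 CPM on the high phosphate diet, 9 of 9 fell, and Cd79a, a chain of the B cell receptor complex, was at 2.07, 9.96 and 9.59 against 0.229, 0.510 and 0.208 CPM. The B cell markers, too, passed the filter only through the normal phosphate libraries. The part of these cells in the Ltb result was not tested. Lta did not pass the filter, at 0.115, 0.709 and 0.586 against 0.0916, 0.153 and 0.208 CPM. The B cell survival factor Tnfsf13b (-0.78) and the cytokine Il18 (-1.09) fell as well; Tnfsf13b lost its call without normal phosphate replicate 3 or high phosphate replicate 1.

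Of the 15 receptors, members included, 12 were tested, 9 fell and 1 rose (median -0.78), where 26.3% of all genes tested fell and 23.0% rose. Cd40, a receptor of B cells, macrophages and endothelium, went from 4.33 ± 1.04 to 0.580 ± 0.0656 CPM (-2.89 ± 0.28, edgeR adjusted p = 0.000281). Tlr2, which senses bacterial lipoproteins (-1.51), and Tnfrsf11a, the receptor RANK (-1.48), also fell. The riser was Eda2r (0.54, edgeR adjusted p = 0.0233), named after its value was seen, whose call was lost under 6 of 16 alternatives and whose sign turned on the FPKM scale (-0.036).

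Of 26 kinases, adaptors and ubiquitin ligases tested, 10 fell, 3 rose and 13 were not called (median -0.075). The share called in either direction was near the 49.3% over all genes, though 38.5% fell, against 26.3% of all genes tested. Those that fell with the smallest p were Traf1, an adaptor that NF-kB induces (5.77 ± 1.09 to 1.55 ± 0.336 CPM, -1.89), the inducible kinase Ikbke (-1.72) and Irak4, which acts below the interleukin-1 and Toll-like receptors (-1.08). Ikbke was not called on the log2(FPKM + 1) scale (-0.90). Map3k14 (NIK), the kinase that starts p100 processing, was at 14.9 ± 1.34 and 13.9 ± 1.52 CPM and not called (-0.098 ± 0.13, edgeR adjusted p = 0.547), though it was called lower with library size alone and on both FPKM scales. The 3 risers, named after their values were seen, were the kinase TAK1 gene Map3k7 (0.50), its partner Tab2 (0.79) and the adaptor Traf2 (0.50). Each lost its call with library size alone and with FPKM, where Map3k7 (-0.097) and Traf2 (-0.39) were below 0.

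Among 13 inhibitors and negative regulators, members included, 6 fell and 2 rose (median -0.036), where 26.3% of all genes tested fell and 23.0% rose. Nfkbie, which encodes IkB-epsilon, went from 5.67, 8.96 and 7.21 CPM to 1.88, 1.68 and 1.92 CPM (-1.99 ± 0.22, edgeR adjusted p = 0.000433), in contrast to the value of its relative Nfkbia. Bcl3, a nuclear member of the IkB family (-1.57), and the A20 partner Tnip2 (-0.67) fell too. Nfkbib, which encodes IkB-beta, rose from 22.3 ± 2.62 to 33.8 ± 4.63 CPM (0.60 ± 0.13, edgeR adjusted p = 0.00605), and Tnip1, another A20 partner, rose as well (0.37). Both were named after their values were seen, and neither was called with library size alone (0.13 and -0.10) or on the log2(FPKM + 1) scale (0.11 and -0.12).

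Of 18 target genes tested, 7 fell, 3 rose and 8 were not called (median -0.44). The share called in either direction was again near that over all genes, though 38.9% fell, against 26.3% of all genes tested. The chemokine Ccl5 went from 7.45 ± 4.92 to 0.677 ± 0.328 CPM (-3.43 ± 0.56, edgeR adjusted p = 0.00228), with normal phosphate replicate 2 the highest (-2.76 without it), and the costimulatory ligand Icosl fell (-1.14). Sqstm1, which encodes the autophagy receptor p62 and is also controlled by other factors, rose from 385, 310 and 329 CPM to 774, 824 and 739 CPM (1.19 ± 0.16, edgeR adjusted p = 0.000758). Bcl2l1, which protects from apoptosis (0.78), and the mitochondrial superoxide dismutase Sod2 (0.52), both named after their values were seen, rose too. Sod2 lost its call under 7 of 16 alternatives and Bcl2l1 under 3.

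Of the other adhesion genes of the vessel wall, 12 were tested, of which 9 fell, 0 rose and 3, Sele, Esam and Jam2, were not called (median -0.64). The share that fell over all genes tested was 26.3%. Madcam1 did not pass the filter, and 3 of the 15 in the list are also among the endothelial markers above. Selp (P-selectin), by which leukocytes first roll, went from 4.02, 4.96 and 5.49 to 1.38, 2.29 and 1.92 CPM (-1.38 ± 0.24, edgeR adjusted p = 0.00207). Sele (E-selectin) was barely detected, at 0.403 to 0.567 and 0.0510 to 0.275 CPM, and missed the threshold (edgeR adjusted p = 0.0512). Icam2, a relative of Icam1 on resting endothelium, fell from 21.3 ± 3.46 to 13.6 ± 0.986 CPM (-0.64). Mcam (-1.05), Cd34 (-1.02) and Alcam (-1.74) had the smallest p of the list beside the members and at a mean of at least 1 CPM; Cd34 is also carried by fibro-adipogenic progenitors, of whose 12 markers 11 fell.

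On the leukocyte side, 8 of 10 partners fell and 0 rose (median -1.48), where 26.3% of all genes tested fell and 23.0% rose. Itgb2, the beta-2 chain that pairs to bind Icam1, went from 20.8, 35.7 and 20.9 to 7.74, 7.69 and 6.85 CPM (-1.80 ± 0.22, edgeR adjusted p = 0.000662). Its partner chain Itgal fell from 10.3 ± 4.55 to 1.55 ± 0.336 CPM (-2.72), and Itgb7, which pairs with the alpha-4 chain, fell by 1.37 on the log2 scale. Markers of T cells, which carry Itgal, were lower in 10 of 10 cases, with sums of 15.2 to 51.9 and 1.77 to 3.52 CPM. All of these markers but Cd2 passed the filter only through the normal phosphate libraries. The part of T cells in these results was not tested. The partners not called, named after their values were seen, were the Vcam1-binding chain Itga4 (20.9 and 19.8 CPM, -0.080, edgeR adjusted p = 0.724) and the widely expressed Itgb1 (388 and 305 CPM, -0.34, edgeR adjusted p = 0.0947).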

How the data were processed

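Gastrocnemius RNA was sequenced in 6 libraries, 3 per diet. The authors deposited gene counts in whole numbers without normalization, under Ensembl identifiers. A second deposited table holds FPKM from the authors. GRCm38 was the build, and DESeq2 1.6.3, featureCounts 1.4.6, HISAT2 2.0.1 and Trim Galore 0.4.1 are listed without roles, per the submitters' processing notes. The annotation release, strand setting and FPKM tool remain not given in the sources used here. Diets and replicate numbers came from sample titles. Counts were tested in edgeR 4.0.16 (R 4.3.3, TMM, filterByExpr, robust quasi-likelihood F test, Benjamini-Hochberg adjustment over all 15347 genes). The procedure was also run on simulated data in which few genes changed, equally many up and down. That run therefore does not bear on the choice of scaling in data where many genes were called. TMM factors were 1.10 to 1.29 on the normal and 0.795 to 0.882 on the high phosphate diet. SE is the log2 fold change over the square root of F, which is approximate. FPKM were tested with limma 3.58.1 on genes with a mean of at least 0.1. Gene models and exon lengths came from GENCODE M21 (GRCm38). Members, lists and tests were chosen with earlier results of these data known; the ratios within libraries (8 tested and 4 described) were added after the marker values were seen. Named were all members, up to 3 called genes with the smallest p per pathway list at a mean of at least 1 CPM, 8 fixed pathway genes and 6 fixed markers, of which Csf1r (-1.29) and Cd79a (-4.50) fell; 1 of the 6 is not reported here. Other marker lists counted, as rising and falling among those tested, were neutrophils (0 and 3 of 5; Ly6g had no count), lymph node stroma (0 and 3 of 6), white adipocytes (1 and 9 of 10), pericytes (1 and 3 of 9), satellite cells (2 and 2 of 8), muscle fibres (9 and 0 of 12) and red blood cells (0 and 0 of 5). Alternatives are given in the closing section. DESeq2 1.42.0 was one of them.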

Additional observations from a re-analysis of the deposited data

How the results depend on the processing

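Across 16 alternatives (other size factors, TMM leaving out the 50 most abundant genes, no TMM, other filters, a replicate block, DESeq2, limma-voom, FPKM at 2 pseudocounts, each library left out) the called members kept their direction and call, except Nfkb1 without high phosphate replicate 1. Between 6 and 9 members were called, all lower, and 3 at a change of at least 2-fold. The number of genes called was 6152 to 8764 over the table and 60 to 82 among the pathway lists with members; leaving out 1 library gave 6152 to 7577 and 60 to 70. The split of all calls moved from 3528 higher and 4035 lower to 878 and 7886 with library size alone and to 756 and 6447 on the log2(FPKM + 1) scale. With the replicate block 7 members were called. Same-numbered libraries of the diets shared only a number (correlation of deviations -0.022, 0.022 and 0.019), and the block changed no call of a member. When 1 library was left out, Relb ranged from -0.17 to 0.066, Nfkbia from -0.41 to 0.20 (0.071 without high phosphate replicate 3) and Map3k14 from -0.15 to 0.0028, the last without high phosphate replicate 3. On the scales with pseudocounts of 1 and 0.1 signs turned for Tnip1 (-0.12 and -0.13, and -0.10 with library size alone), Map3k7 (-0.097 and -0.10), Traf2 (-0.39 and -0.46) and Eda2r (-0.036 and -0.036). Marker scores near 0 turned when 1 library was left out: satellite cells from -0.12 to 0.057 (0.0022 and 0.0052 without normal phosphate replicates 1 and 2) and red blood cells from -0.89 to 0.43 (0.16 and 0.18 without normal phosphate replicate 2 and high phosphate replicate 3). The causes were not tested.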
